A study of Mus musculus with 2 samples.

Results

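The expression of 9 genes of cell junctions was compared between primary and self-renewing mouse macrophages. These are Tjp1, Tjp3, F11r and Ocln of the tight junction, Cdh1, Ctnna1, Ctnnb1 and Jup of the adherens junction, and Gja1 of the gap junction. They are 9 of the 22910 genes with a named probe on the array, and 15 of the 56598 gene probes measure them. The genes were chosen by the measured values compared here, with known junction genes added to those that differed, so the values below are a description and carry no test.

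RNA of each cell type was hybridised to 1 Agilent mouse expression array with 1 dye, and both arrays were on the same slide. The primary macrophages were grown for 5 days from total bone marrow of C57BL/6 mice. The self-renewing macrophages came from the same kind of culture after passage 4, in which most cells stop dividing and growing colonies take over, and they were a bulk population without cloning. Both cultures were unmodified and received 100 ng/ml of M-CSF, the growth factor that drives macrophage survival and division, so the comparison holds culture time and passage together and cannot separate them. The age of the mice is not given in the sources used here. With 1 array per cell type no spread between replicates can be had, and the number of arrays limits the precision of every value.

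Tight junctions seal neighbouring cells through membrane proteins of the claudin, occludin and JAM families, which the ZO scaffold proteins hold to the actin cytoskeleton. Adherens junctions join cells through cadherins, whose tails bind β-catenin or plakoglobin and, through these, α-catenin and actin. Gap junctions are channels of connexins. These structures are best known in epithelia, but macrophages also use JAM proteins, catenins and connexins, and β-catenin doubles as the transcriptional partner of the TCF/LEF factors in Wnt signalling.

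Each signal is the spot's brightness after background correction by the scanner software, given as an intensity with that software's own error estimate for the spot. Log2 levels are relative to the 75th percentile of the gene probes of the array, an intensity of 434 in the primary sample and 446 in the self-renewing one. The lowest intensity that the software flagged as well above background was 11.8 in the primary sample and 13.2 in the self-renewing one. Where a probe was well above background on 1 array only, the difference is a bound. It is taken against the higher of the dim probe's own signal and the lowest signal well above background on that array. The fold is then given as a minimum ("at least"). Some probes over that lowest signal lacked the flag, so it is not a detection limit, and "at least" holds for this processing only. As a check of the cell type, 10 of 10 macrophage markers, among them Csf1r, Adgre1 and Itgam, were well above background on both arrays. Of these, 1 was higher by 2-fold or more in the self-renewing macrophages, Mertk, at 524 in the primary and 2520 in the self-renewing sample. Another 1 was lower by as much, Fcgr1, at 5516 and 1675. Both samples are labelled male, but of 4 broadly expressed Y-linked genes 0 were detected in the primary and 4 in the self-renewing macrophages, and the RNA of the inactive X chromosome, Xist, was detected in the primary macrophages alone. A difference of sex between the cultures and the difference of cell type cannot be told apart with these arrays, and with 1 array each no result can be given without the sample that goes against its label.

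Of the 15 probes, 6 were well above background on both arrays, 1 only for the self-renewing macrophages, 1 only for the primary macrophages and 7 for neither. By gene, Tjp1 and F11r exceeded their primary level by 2-fold or more in the self-renewing macrophages, and Jup was at least 2-fold lower. Tjp3, Ctnna1 and Ctnnb1 differed by less than 2-fold, and Ocln, Cdh1 and Gja1 were not well above background on either array. Over all 15515 named genes detected on at least 1 array, 4.76% were higher by 2-fold or more and 8.38% lower by 2-fold or more, with a median difference of -0.02 log2. Among the genes past 2-fold, 36.2% were higher, and 49.2% were higher in the intensities as scaled by the authors, which shift every difference upwards by 0.19 log2. These shares are given beside the members only as the background, because the members were selected on this same contrast.

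**Figure D1:**
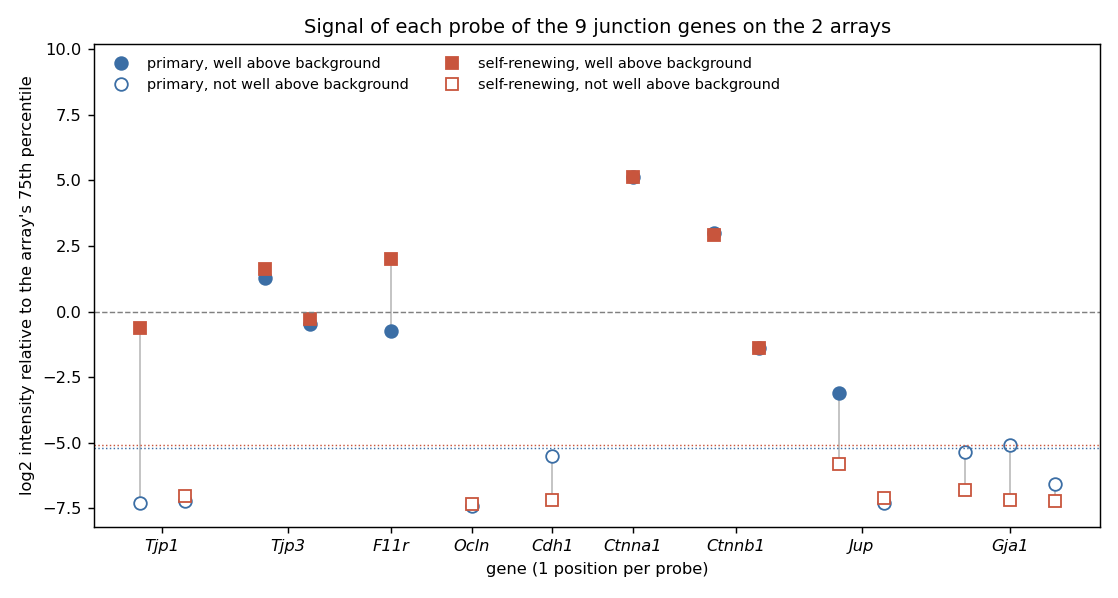
Signal of every probe of the 9 genes, as log2 intensity relative to the array's 75th percentile (dashed line at 0), for the primary (circles) and the self-renewing macrophages (squares), with 1 position per probe, a grey line joining its 2 values and dotted lines at each array's lowest signal well above background. Filled symbols are well above background: only Tjp1 (first probe), F11r and Jup (first probe) show a visible gap with at least 1 filled symbol, and the pairs of Tjp3, Ctnna1 and Ctnnb1 nearly coincide.

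Tjp1 encodes ZO-1, the scaffold that links claudins, occludin and JAM proteins to actin. Its probe A_55_P2034998 had an intensity of 2.78 ± 2.79 in the primary macrophages, not well above background, and of 291 ± 30.3 in the self-renewing macrophages (scanner software's error, 1 spot each). On the log2 scale its level was -7.28 in the primary and -0.62 in the self-renewing macrophages, and in the latter it was 4.47 log2 over the dimmest signal with the flag. The transcript that this probe measures was therefore at least 24.0-fold more abundant in the self-renewing macrophages, a bound of 4.58 log2. Of the 331 genes with the flag for the self-renewing sample alone, 4 had a larger bound. With the normexp background correction, which raises the dimmest signals, the difference was 2.02 log2, below that bound, so the size depends on how dim signals are treated.

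The other probe for Tjp1, A_51_P390739, did not show this difference. Its intensity was 2.92 in the primary and 3.38 in the self-renewing macrophages, well above background in neither. Both probes carry the same transcript accession, and the sequences that they target were not analysed here. Of 82 genes with several probes whose detection was limited to the self-renewing sample, 74 (90.2%) had another probe that reached the flag on neither array. That count leaves out genes with any probe flagged in the primary sample, so a further probe could only share the pattern or lack the flag. The 82 genes were not matched to Tjp1 in brightness, so the share does not tell how usual its split is. The difference of Tjp1 rests on 1 of its 2 probes.

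The genes whose pair of signals lay nearest to that of Tjp1, among those with this pattern of flags, were Dclk3, 1700125H20Rik, Snhg18, Kdm5d and Ddx3y. Likeness here is the Euclidean distance over the 2 arrays on the log2 scale, and it ran from 0.15 for Dclk3 to 0.42 for Ddx3y. Dclk3, a doublecortin-like kinase gene, had a bound of at least 23.5-fold, and Ddx3y one of at least 18.0-fold. Kdm5d and Ddx3y lie on the Y chromosome, and Kdm5d was at least 19.4-fold higher. With 2 arrays, any genes silent on one and equally bright on the other are alike by this measure.

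F11r encodes JAM-A, a transmembrane adhesion protein of the immunoglobulin family that binds ZO-1 through its tail and is also carried by leukocytes and platelets. The intensity of its only probe, A_51_P458866, was 260 ± 26.1 in the primary and 1776 ± 178 in the self-renewing macrophages. Relative to the 75th percentile its level was -0.74 log2 in the former and 1.99 log2 in the latter. F11r was thus 6.63-fold higher in self-renewing cells, a difference of 2.73 log2. It was measured on both arrays, and of the 14003 genes with that property, 78 (0.557%) differed by more in this direction. Of the other JAM genes, Jam2 was at 24.2 in the primary and 16.1 in the self-renewing macrophages, a difference of -0.63 log2, and Jam3 was not well above background on either array.

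Tjp3 encodes ZO-3, a scaffold related to ZO-1. Its probe A_55_P1960291 had an intensity of 1065 ± 107 in the primary and 1391 ± 139 in the self-renewing macrophages, a difference of 0.34 log2. Its probe A_51_P234407 gave 310 ± 31.1 and 367 ± 36.9, a difference of 0.20 log2. Both differences were under 2-fold and of the order of the 0.325 log2 SD by which probes of the same gene differ on these arrays.

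Ocln encodes occludin, the membrane protein for which ZO-1 is a partner. Its probe was at 2.54 in the primary and 2.81 in the self-renewing macrophages and was not well above background on either array. It gives no fold, and the array does not tell an absent transcript from one below its detection.

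Among the adherens junction genes, Cdh1 encodes E-cadherin, the adhesion receptor of epithelia and of some specialised macrophages. Its probe was at 9.69 ± 2.93 in the primary and 3.08 ± 3.10 in the self-renewing macrophages, neither well above background. No fold is given for it. Not being detected was a common outcome, as 7395 of all named genes (32.3%) were not well above background on either array.

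The 2 catenins that join a cadherin to actin were bright and nearly equal. Ctnna1, which encodes αE-catenin, was at 15383 ± 1538 in the primary and 15592 ± 1559 in the self-renewing macrophages, a difference of -0.02 log2. Ctnnb1, which encodes β-catenin, was at 3455 ± 346 and 3379 ± 338 with probe A_52_P424585, a difference of -0.07 log2. Its probe A_66_P122220 was at 167 ± 16.9 and 169 ± 17.1, a difference of -0.02 log2. The sign of these small differences changed with the scaling: quantile normalization turned that of Ctnna1 to 0.11 log2, and with the intensities as scaled by the authors they became 0.17 log2 for Ctnna1 and 0.11 and 0.17 log2 for the probes of Ctnnb1. For these 3 probes the difference was under 2-fold with each alternative tried.

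Jup encodes plakoglobin, a relative of β-catenin that serves in adherens junctions and desmosomes. The intensity of its probe A_66_P136655 was 50.3 ± 5.60 in the primary macrophages, well above background, and 7.91 ± 2.84 in the self-renewing macrophages, not well above background. Jup was at least 3.93-fold lower in the self-renewing macrophages, a bound of -1.97 log2. With the normexp background correction the difference was -0.68 log2, under 2-fold, so the call depends on how dim signals are treated. Of the 1181 genes detected in the primary macrophages only, 300 had a larger bound, and the other probe for Jup, A_65_P13547, was at 2.78 and 3.25, well above background on neither array.

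Gja1 encodes connexin43, the gap junction protein most often described in macrophages. None of its 3 probes was well above background on either array. Their intensities were from 4.55 to 12.8 in the primary and from 2.97 to 4.01 in the self-renewing macrophages. The highest, 12.8 for probe A_52_P174915, lies just over the 11.8 at which the dimmest flagged probe of that array stood, but its own flag was negative. All 3 values were lower in the self-renewing macrophages, and none can be turned into a fold.

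**Figure D2:**
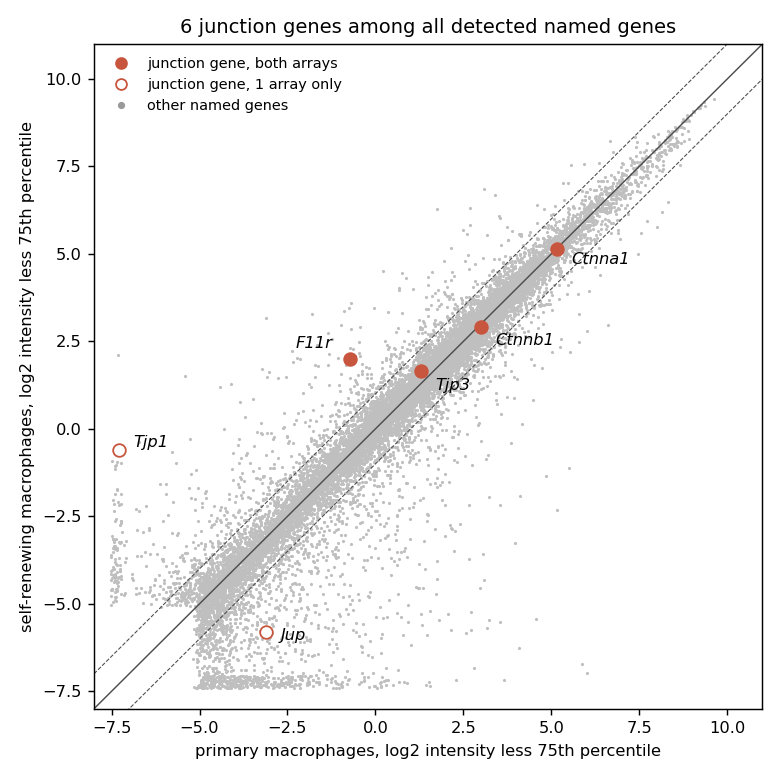
Level of each detected named gene in the primary macrophages (x axis) against the self-renewing macrophages (y axis), both as log2 intensity relative to the array's 75th percentile, with the solid line at equality, dashed lines at 2-fold, and the 6 detected junction genes marked. F11r lies above the upper dashed line, Ctnna1, Ctnnb1 and Tjp3 lie between the lines, and Tjp1 and Jup (open circles) were well above background on 1 array only.

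The sequence upstream of the start of the 2 members that were higher is shown for reference, since they were the members that differed in the same direction. Both windows are the 250 bases before the gene's start in RefSeq on the GRCm38.p6 assembly, written 5′ to 3′ on the gene's strand. Capitals mark E-boxes, here any CANNTG on either strand, the motif class bound by the Snail and Zeb repressors of Cdh1 and by many other factors. Tjp1 is at chr7:65371245-65371494 on the minus strand and F11r at chr1:171437311-171437560 on the plus strand.
Tjp1: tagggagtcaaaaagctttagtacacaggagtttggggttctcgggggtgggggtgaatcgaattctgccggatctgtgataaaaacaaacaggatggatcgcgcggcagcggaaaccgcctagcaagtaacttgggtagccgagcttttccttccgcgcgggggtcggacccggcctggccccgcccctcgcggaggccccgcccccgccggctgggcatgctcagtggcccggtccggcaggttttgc
F11r: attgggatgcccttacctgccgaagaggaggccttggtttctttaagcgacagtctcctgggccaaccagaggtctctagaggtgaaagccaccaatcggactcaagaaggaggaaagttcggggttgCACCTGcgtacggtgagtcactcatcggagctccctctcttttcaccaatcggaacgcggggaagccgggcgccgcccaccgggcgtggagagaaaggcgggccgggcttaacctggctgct

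The Tjp1 window held 0 E-boxes and the F11r window 1, CACCTG, which starts 122 bases before the gene's start. Of the 32851 windows of this length in the table, 66.2% held a CANNTG and 17.2% held CAGGTG or its reverse complement CACCTG. The windows were rich in G and C, with a GC share of 63.2% and 22 CpG for Tjp1, and of 60% and 17 CpG for F11r. A match is a description of these letters only, and the start used by the macrophages was not measured. The promoter of Cdh1 was not analysed here.

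The 9 genes were set beside the wider families they belong to. Lists of 130 genes of tight, adherens, desmosomal and gap junctions were compiled, with some genes on more than 1 list, and 77 of them were detected on at least 1 array. Of these, 7 (9.09%) were higher by 2-fold or more in the self-renewing macrophages and 13 (16.9%) lower, against 4.76% and 8.38% of all detected named genes. Without the 9 members, 5 (7.04%) of 71 were higher and 12 (16.9%) lower, with a median of -0.16 log2 against -0.02 for all named genes. The lists hold no independent evidence, since they were written with results of these arrays known. Under the normexp background correction the genes at least 2-fold lower in the union numbered 8.

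Of 62 tight junction genes, 39 were detected, with a median of -0.22 log2. Of the 39, 3 (7.69%) were higher by 2-fold or more, 7 (17.9%) were lower by as much and 29 were under 2-fold. The shares over all detected named genes were 4.76% and 8.38%. Beside Tjp1 and F11r, the third gene that was higher was Prkcz, an atypical protein kinase C of the apical polarity complex. The intensity of Prkcz was 30.7 in the primary and 250 in the self-renewing macrophages, which is 7.92-fold, and its other 2 probes reached the flag for the self-renewing sample alone.

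Lsr, which encodes angulin-1 at the corners where 3 cells meet and is also a lipoprotein receptor, was the tight junction gene that was lower by most, at 2060 in the primary and 59.3 in the self-renewing macrophages, 35.7-fold. Pard6g, a polarity scaffold that binds atypical protein kinase C, was 5.14-fold lower, at 165 and 33.0. Ybx3, a Y-box factor that ZO-1 can bind, was 3.24-fold lower, at 8680 and 2754. Thus a polarity kinase and a scaffold of the same complex, Prkcz and Pard6g, lay on opposite sides. Their brighter relatives Prkci and Pard6a differed by less than 2-fold. Prkci was at 2061 and 1764, a difference of -0.27 log2, and Pard6a at 339 and 260, a difference of -0.42 log2. Cldn12, a claudin, was 2.47-fold lower, at 223 and 92.7.

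Cgnl1 encodes paracingulin, which binds ZO-1, and its probes disagreed. Its brightest probe was at 3854 in the primary and 245 in the self-renewing macrophages, 16.2-fold lower, and a further probe differed by -3.77 log2. The probe A_52_P549032 went the other way, from 69.0 to 871, a difference of 3.62 log2. Only 2 of 5077 genes with several probes on both arrays had probes at least 2-fold apart in opposite directions, and Cgnl1 is one of them, so the direction of the gene as a whole is uncertain.

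Of 30 adherens junction genes, 25 were detected, with a median of -0.07 log2. Of the 25, 3 (12%) were past 2-fold upwards and 4 (16%) downwards, Jup among the latter. This compares with 4.76% and 8.38% of all detected named genes. Arvcf, a catenin of the p120 family that stabilises cadherins at the membrane, was 4.88-fold higher, at 76.3 in the primary and 383 in the self-renewing macrophages. A further probe for Arvcf differed by 2.10 log2, while its dimmest was detected in the primary macrophages alone, at 15.4 and 8.39, a bound of -0.27 log2. Ctnnd2, another catenin of that family, was 15.1-fold lower, at 1201 and 82.0. The p120 catenin gene itself, Ctnnd1, was under 2-fold, at 5679 and 7878, a difference of 0.43 log2. Pkp4, a further member of that family, was also under 2-fold, at 3080 and 2648, a difference of -0.26 log2.

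Ajuba, a LIM protein that binds α-catenin, was 4.68-fold higher, at 29.6 in the primary and 142 in the self-renewing macrophages. Plekha7, which ties p120 catenin to microtubules, was 3.64-fold higher with its brightest probe, at 17.0 and 63.5, whereas another of its probes differed by -0.31 log2. Camsap3, the microtubule minus-end protein that PLEKHA7 recruits, was 9.67-fold lower, at 1712 and 182. Vcl, the vinculin that reinforces α-catenin on actin, was 3.29-fold lower, at 3956 and 1237, while α-catenin itself, as above, hardly differed.

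Of 17 desmosome genes 7 were detected, and of 23 connexin and pannexin genes 8. By 2-fold or more, 1 of the 7 was higher and 2 were lower, and of the 8 these counts were 0 and 1. The shares over all detected named genes were 4.76% and 8.38%. Pkp2, a plakophilin that binds plakoglobin and desmoplakin, was at 38.9 in the primary and 806 in the self-renewing macrophages, 20.1-fold higher. Pkp3, its relative, was detected in the primary macrophages alone, at 28.9 against 3.24, at least 2.26-fold lower. Dsp, which encodes desmoplakin, was not well above background on either array. Among the channels, Panx1, which releases ATP from macrophages, was 2.35-fold lower, at 5565 and 2438, and it was the only one of the 8 at least 2-fold apart.

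**Figure D3:**
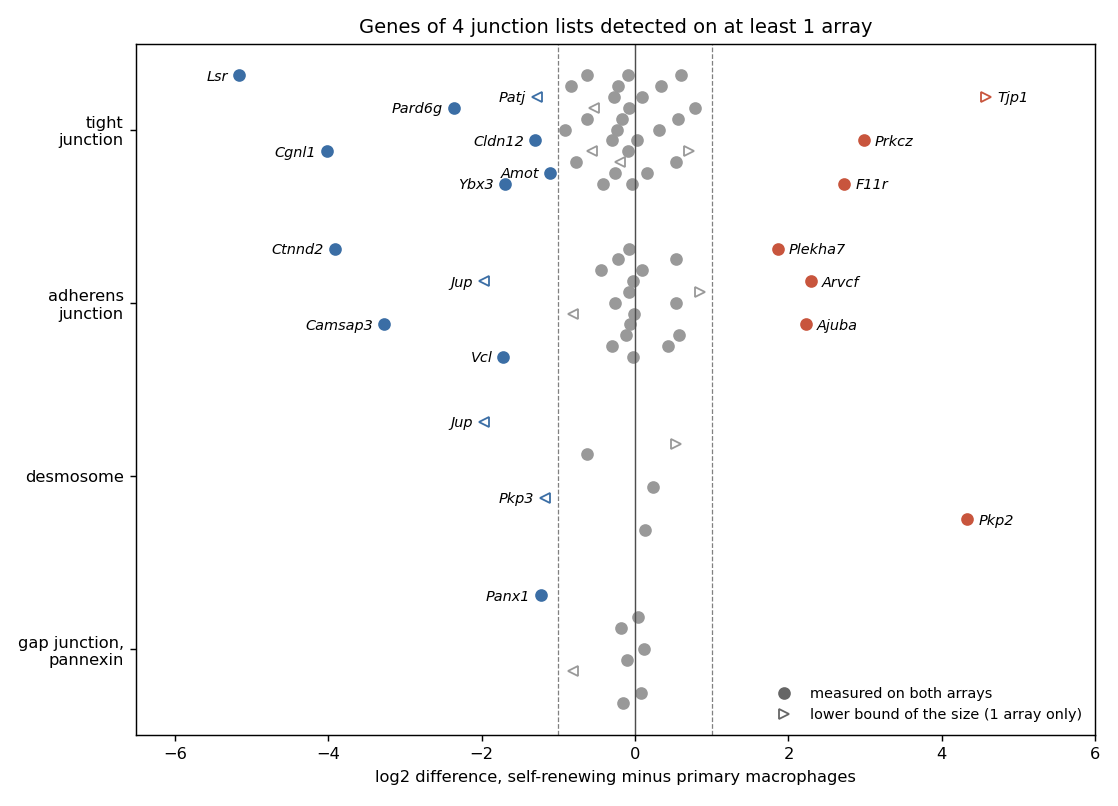
Log2 difference, self-renewing minus primary macrophages, of each detected gene of the tight junction, adherens junction, desmosome, and gap junction and pannexin lists, 1 symbol per gene by its brightest probe, with dashed lines at 2-fold and open triangles for bounds of genes detected on 1 array only (vertical position within a list has no meaning). Most symbols lie between the dashed lines, with 7 genes past 2-fold on the right (red) and 13 on the left (blue), and Jup is drawn under both lists that hold it.

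β-catenin also acts in transcription, and Ctnnb1 differed little between the cell types, so the partners of its protein were listed as well. Of 20 genes of the β-catenin destruction complex and of its transcription partners, 16 were detected, 4 (25.0%) were past 2-fold upwards and 0 downwards, against 4.76% and 8.38% of all detected named genes, and the median was 0.25 log2 against -0.02. Tcf7l2, which encodes the DNA-binding factor TCF4, was at 265 in the primary and 988 in the self-renewing macrophages, 3.62-fold higher, and its other 3 probes were higher by 0.40 to 1.84 log2. Tcf7, which encodes TCF1, reached the flag with 1 of its 2 probes, for the self-renewing sample alone, at 2.85 and 66.0, at least 5.43-fold higher. Lef1 and Axin2, a common target of the pathway, were not well above background on either array.

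For the other 2 genes the probes disagreed. Bcl9l, a coactivator that binds β-catenin, was 2.14-fold higher with its brightest probe, but its other probes differed by -0.59 and -0.07 log2. Btrc, a subunit of the ligase that marks β-catenin for destruction, was 2.01-fold higher with 1 probe and differed by 0.07 log2 with the other.

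A list of 15 genes held transcription factors known to repress or activate Cdh1, together with the splicing regulators Esrp1 and Esrp2. Of this list 5 were detected, Esrp1 among them. Snai2, which encodes the repressor Slug, was detected in the self-renewing macrophages alone, at 2.79 and 98.8, at least 8.13-fold higher. Zeb2, a repressor that macrophages express, was at 6109 and 6224, a difference of -0.01 log2. Snai1 and Zeb1 were not well above background on either array, and with Cdh1 itself undetected on both, no direction can be set beside that of Snai2.

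Genes of other cells that bear junctions were looked at on the same arrays. Over all detected named genes, 4.76% were higher and 8.38% lower by 2-fold or more. In lists as short as those below, a count of 0 is close to these shares. Of 12 epithelial markers 7 were detected and 0 were at least 2-fold apart. Their summed intensity was 400 in the primary and 394 in the self-renewing macrophages. The 5 well above background on both arrays were Cldn7, at 129 and 142, Esrp1, at 121 and 118, Krt5, at 56.7 and 64.0, Krt14, at 50.7 and 42.2, and Cldn4, at 16.6 and 16.7. Epcam, Krt8 and Krt19 were not well above background on either array. Of 10 endothelial markers 7 were detected and 0 were at least 2-fold apart, with sums of 4362 and 3938, and Tek, Tie1 and Emcn were not well above background. Of 10 fibroblast and stromal markers 4 were detected and 0 were at least 2-fold apart, with sums of 22477 and 20984, and Col1a1, Col3a1 and Pdgfra were not well above background. Single genes carry the stromal and endothelial sums. Acta2 gave 22394 and 20890 of the stromal sums and Vwf 3062 and 2563 of the endothelial ones, while Col1a2 went from 52.9 to 88.1, a difference of 0.69 log2, and Pecam1 and Eng differed by 0.36 and 0.14 log2. Cldn5 was detected in the self-renewing macrophages alone, at 10.1 and 19.8. Other markers went the other way. Kdr differed by -0.41 log2. Cdh5, at 22.5 and 7.97, and Esam, at 18.9 and 3.53, were detected in the primary macrophages alone. So was the stromal marker Cxcl12, at 17.9 and 2.78. At any size, 4 of the 7 detected endothelial markers were lower and 3 higher. The part of such cells in the signal of Tjp1 and F11r was not tested.

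Markers of blood cells did move. The background is the 8.38% of all detected named genes that were lower by 2-fold or more. Of the 8 neutrophil markers detected, 8 had less signal in self-renewing cells, 7 of them by at least 2-fold, with a summed intensity of 51678 in the primary and 2908 in the self-renewing macrophages. The 7 detected megakaryocyte and platelet markers summed to 112159 and 24295, with 4 at least 2-fold lower. The 5 detected erythroid markers summed to 774 and 346, with 2 at least 2-fold lower, and 3 of the 7 detected dendritic cell markers were at least 2-fold lower. Those were Itgax, at 5180 and 597, Ccr7, at 227 and 9.29, and Batf3, at 410 and 122, while Siglech, at 83903 and 91973, made up most of the dendritic sums of 89783 and 92760. Their part in the lower signal of Jup, Lsr, Ctnnd2 and the other genes that were lower was not tested. In RNA of a whole culture, fewer cells of a type and less RNA per cell cannot be told apart.

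The differences of the members were recomputed under 8 other ways of processing. F11r was from 2.50 to 2.92 log2 and past 2-fold in each, and the probes of Tjp3 stayed between 0.15 and 0.53 log2. Tjp1 was from 2.02 to 6.67 log2 wherever it had a value, and Jup was from -2.71 to -0.68 log2. Against an SD of 0.325 log2 between probes of a gene, the 4 genes measured on both arrays shifted by less, while the 2 genes measured on 1 array shifted by more with normexp and without the filter on background. For those 4 genes, only normexp and quantile normalization could move the probes separately. The other alternatives kept the values, averaged the probes or shifted all probes alike.

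**Figure D4:**
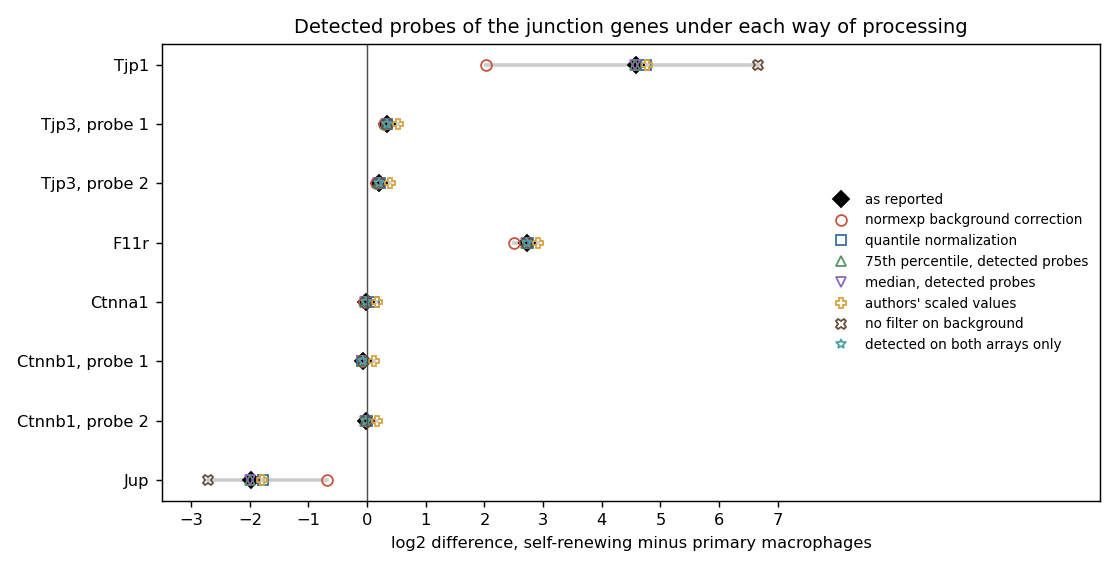
Log2 difference, self-renewing minus primary macrophages, of the 8 detected probes of the junction genes as reported (filled diamonds) and under alternative ways of processing (open symbols), with a grey bar from the lowest to the highest value. Values for Tjp3, F11r, Ctnna1 and Ctnnb1 are tightly grouped, those for Tjp1 run from 2.02 to 6.67 and those for Jup from -2.71 to -0.68, and Tjp1 and Jup have no value when only probes detected on both arrays are kept.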

How the data were processed

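RNA of 1 culture of each macrophage type was hybridised with Cy3 to 1 Agilent array. The authors deposited the output of Feature Extraction 11.5.1.1: for each spot an intensity after background correction within the array, and flags for saturation, outliers and signal well above background. They also deposited the same intensity times 1 constant per array, 1.07 and 1.19, whose origin is not given in the sources used here. Here control spots and 63 outlier spots per array were left out, spots of a probe were averaged, and the log2 of the intensity was set against the 75th percentile of its array. Accessions in a RefSeq table of GRCm38.p6 named 32988 of 56598 probes. The array design uses mm9, so no gene coordinates from the table are given except those of the printed windows. A gene is represented by its probe of highest mean signal among those well above background on at least 1 array.

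The members and all lists were chosen with earlier results of these data known. Named are all members, up to 5 genes per list and direction at least 2-fold apart, and the 5 genes nearest to Tjp1. Other genes, such as Jam2, Prkci, Pard6a, Ctnnd1, Pkp4, Dsp, Lef1 and Zeb2, were added as relatives after their values were seen. So were single markers, such as Acta2, Vwf and Siglech, which carry a sum. Without replicates, no test could be run. Alternatives were normexp with offset 50 on the median spot signal, quantile normalization, scaling by either the 75th percentile or the median of detected probes alone, the values as the authors scaled them, dropping the filter on background, keeping only probes detected on both arrays, and averaging the probes of a gene. Scripts were tested on simulated data. Tools were limma 3.58.1 in R 4.3.3, and numpy 2.4.6, pandas 2.3.3 and matplotlib 3.10.9 in Python 3.11.15.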

Additional observations from a re-analysis of the deposited data

How the results depend on the processing

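The alternatives gave 54 values for member probes, and 50 lay closer to the reported value than 0.325 log2, the SD between probes of one gene. Much of this closeness was fixed in advance. Changing the filter on background leaves a probe flagged on both arrays at its reported value. The authors' scaling and those on detected probes shift every probe by a constant, 0.19 log2 for the authors' scaling. Only normexp and quantile normalization could move such probes separately. None of the called differences changed direction. With normexp, Tjp1 was 2.02 and Jup -0.68 log2, 0 member genes and 8 junction list genes were at least 2-fold lower, and over all named genes 429 were higher and 750 lower. With no filter on background, Tjp1 was 6.67 and Jup -2.71 log2, 3 member genes and 26 junction list genes were lower, and 1192 of all named genes were higher and 2336 lower. With only probes detected on both arrays, Tjp1 and Jup have no value, so 1 member gene was higher and 0 lower, and 588 of all named genes were higher and 782 lower. The authors' scaling moved no member across 2-fold but gave 1035 higher and 1069 lower over all named genes, against 739 and 1300. Signal over background limits Tjp1, Jup, Ocln, Cdh1 and Gja1, for which at least 1 array gives only an upper limit. No paired analysis was possible because there is a single array of either kind, and for the same reason no array could be left out.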

Other observations

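Cadherins outside the classical junctions included 5 genes whose detection was limited to the self-renewing cells and 3 limited to the primary cells. Over all 15515 detected named genes, these counts were 331 and 1181. Of the 5, Cdhr5, Pcdhb17 and Pcdhb21 were dim, at 18.3, 22.5 and 18.7 in the self-renewing macrophages, with bounds under 2-fold. Of 63 further cadherins and protocadherins 62 had a probe and 28 were detected, of which 3 (10.7%) were higher and 0 lower by 2-fold or more, against 4.76% and 8.38% of all detected named genes, with a median of -0.03 log2 against -0.02. The clustered protocadherin gene Pcdhb16, a homophilic adhesion gene best known from neurons, was at an intensity of 4.10 in the primary and 341 in the self-renewing macrophages, and Pcdhb8, of the same cluster, was at 2.67 and 40.2, at least 3.31-fold higher. The giant cadherin gene Fat3 was 4.96-fold higher, at 56.4 and 288, and its other 2 probes were higher as well. Cdh11, a classical cadherin named here after its value was seen, was detected on both arrays and differed by 0.22 log2, at 1216 and 1459. The clustered protocadherins are close relatives in sequence, and how much signal their probes share was not tested.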
